A study of Mus musculus with 17 samples.

Results

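Gene expression in mouse lungs 6 weeks after a single focal dose of 65 Gy was compared with that in non-irradiated lungs of the same time, across all genes counted. The comparison was taken from the sample labels and holds 5 of the 17 libraries: 2 of the 65 Gy group (numbered 3138 and 3140) and 3 controls (numbered 3135, 3136 and 3137). All animals were male wild-type C57BL/6 mice that entered the study at 6 weeks of age. X-rays had been delivered in 1 fraction to the left lung under image guidance, the control animals had received no radiation, and both groups were examined 6 weeks later, the time that the study calls the fibrosis stage. The methods state that RNA of irradiated animals came from the lesions, and no source says which region of the control lungs was taken. A further 65 Gy library of 6 weeks was not analysed here. The libraries carry a number each, but no source states whether each came from 1 animal. The p-values therefore measure a spread between libraries, which was estimated from all 17 libraries fitted together.

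A large focal dose of radiation kills dividing and endothelial cells of the lung, and dying cells release signals that draw monocytes and lymphocytes into the alveoli. Recruited monocytes become macrophages that take up lipid and debris, and these cells, together with activated fibroblasts, remodel the matrix over weeks. Fibrosis of the irradiated lung is the late form of this injury, and its main structural proteins are collagens, elastin and fibronectin.

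Each library held between 57115732 and 62021693 counts, and levels are given as CPM, counts scaled to the size of the library. Of 45777 genes in the file, 22052 passed the filter on low counts. The defining genes of lung were abundant: Sftpc, the surfactant protein C of alveolar type 2 cells, was at 10244, 11602 and 10172 CPM in the controls and 17209 and 12591 CPM after 65 Gy. Pearson correlations of log2 CPM were 0.985 to 0.986 among the control pairs, 0.983 between the 65 Gy libraries, and 0.967 to 0.971 between a 65 Gy and a control library. Several libraries stood apart from their group. Control 3135 was high in B cell genes and in granule genes of immature neutrophils (Ngp, 41.3, 1.73 and 3.05 against 3.35 and 1.08 CPM), control 3136 in mesothelial genes, and control 3137 in cardiac muscle genes (Myh6, 106, 68.7 and 343 against 169 and 172 CPM) and adipocyte genes (Adipoq, 0.73, 0.998 and 6.11 against 2.39 and 3.33 CPM). Library 3138 of the 65 Gy group was high in immunoglobulin genes. The part of these differences in the results was not tested, and values with single libraries left out are given with the results.

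In the 65 Gy lungs 956 genes were higher and 208 were lower than in the controls, which is 4.34% and 0.943% of the genes tested, or 5.28% in all. A gene was called when the adjusted p of edgeR's quasi-likelihood test (Benjamini-Hochberg) was at most 0.05 and the log2 fold change was at least 1 in size. The adjusted p alone was passed by 1689 genes that were higher and 1545 that were lower, so the 2 directions differed in number mainly where the limit on the fold change was applied. The 65 Gy and the control libraries did not overlap at 1151 of the 1164 called genes and at 12417 of all genes tested (56.3%). The median log2 fold change of all genes tested was 0.01. In the text below, a value that follows a gene's CPM values is its log2 fold change (65 Gy over control), with ± its standard error (SE) where one is given, and p-values in brackets are adjusted ones. With only 2 libraries in the 65 Gy group the count depended on both: it was 599 without 3138 and 746 without 3140, against 859 to 952 when a control was left out. Each of these fits with 1 library left assumes that the remaining library varies like those of the other groups. Of the called genes, 789 higher and 152 lower ones were protein-coding, 75 and 48 were long non-coding RNAs, and 58 higher ones carried the file's type for antibody or T cell receptor V segments.

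**Figure D1:**
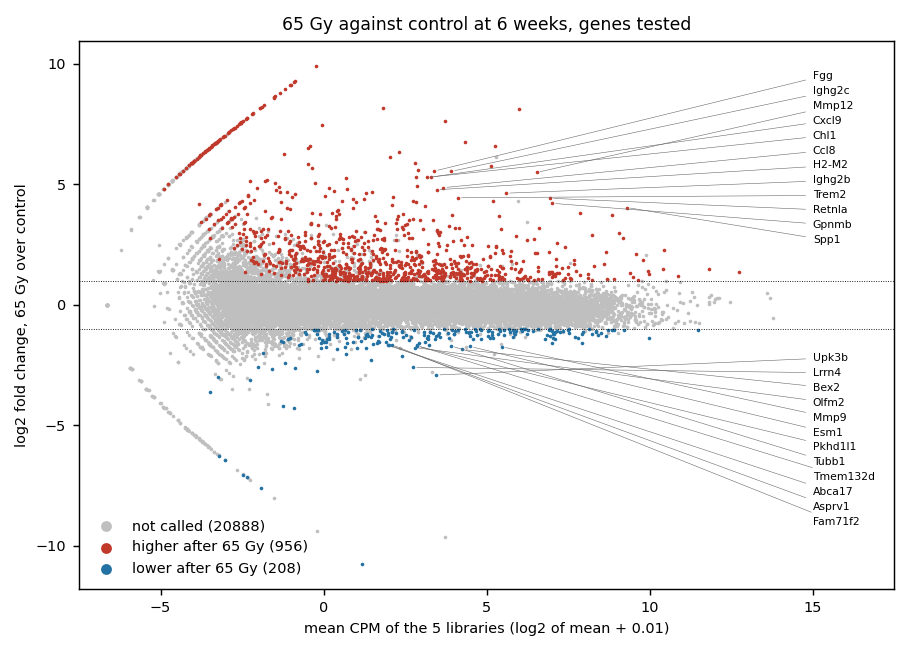
Log2 fold change of 65 Gy over control at 6 weeks for the 22052 genes tested (vertical axis, dotted lines at the limit of 1) against the mean CPM of the 5 libraries on a log2 scale (horizontal axis), with called genes in colour. The 956 red points above the line outnumber the 208 blue points below it, and the 12 named genes of the largest rises lie further from 0 than the 12 of the largest falls.

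Among the called genes with a mean log2 CPM of at least 1, no overlap between the groups and an established name, the 12 largest rises were in a fibrinogen chain, in antibody genes, in macrophage genes, in chemokines, and in Chl1 and H2-M2. Fgg (chr3:83007724-83015056 in GRCm38.p6), the gamma chain of fibrinogen, was at 0.535, 0.178 and 0.908 CPM in the controls and 19.5 and 31.3 CPM after 65 Gy (log2 fold change 5.55 ± 0.57 SE, adjusted p = 2.9e-05). Mmp12 (chr9:7344397-7360461), the macrophage metalloelastase, was at 6.36, 4.69 and 3.82 CPM in the controls and 192 and 254 CPM after 65 Gy (log2 fold change 5.49 ± 0.38 SE, adjusted p = 6.2e-07). The ranges of the groups are far apart for both genes, and the controls of Fgg lay below 1 CPM. Cxcl9 (chr5:92321331-92328079), which draws T cells through the receptor CXCR3, was at 0.551, 0.624 and 0.611 against 27.5 and 19.5 CPM (control against 65 Gy, log2 fold change 5.30 ± 0.70 SE, adjusted p = 0.00025). Chl1 (chr6:103510584-103733038), a neural cell adhesion molecule, was at 0.341, 0.464 and 0.873 against 23.3 and 20.4 CPM (log2 fold change 5.29 ± 0.34 SE, adjusted p = 3.6e-07). Ccl8 (chr11:82115185-82116799), a monocyte chemokine, was at 0.665, 1.41 and 1.06 against 35.7 and 24.9 CPM (log2 fold change 4.86 ± 0.36 SE, adjusted p = 1.1e-06). The lack of overlap at these genes was set by the rule. H2-M2 (chr17:37480851-37483554), a non-classical class I gene, was at 0.746, 1.21 and 0.908 against 27.5 and 24.6 CPM (log2 fold change 4.77 ± 0.86 SE, adjusted p = 0.0026). Trem2 (chr17:48346401-48352276), a lipid-sensing receptor of macrophages, was at 2.37, 1.71 and 1.501 against 40.3 and 40.6 CPM (log2 fold change 4.44 ± 0.30 SE, adjusted p = 5.6e-07). Retnla (chr16:48842609-48844461), a secreted protein of alternatively activated macrophages, was at 13.3, 12.5 and 14.4 against 277 and 298 CPM (log2 fold change 4.42 ± 0.58 SE, adjusted p = 0.00024). In Trem2 and Retnla the irradiated libraries were close to each other. Gpnmb (chr6:49036518-49058182), a lysosomal glycoprotein of lipid-laden macrophages, was at 19.7, 13.4 and 15.1 against 289 and 306 CPM (log2 fold change 4.21 ± 0.31 SE, adjusted p = 1.1e-06). Spp1 (chr5:104435111-104441053), osteopontin, was at 96.5, 72.6 and 94.0 against 1269.6 and 1608 CPM (log2 fold change 4.04 ± 0.32 SE, adjusted p = 2.1e-06). The other names among the 12 were the antibody genes Ighg2c and Ighg2b, which are described below with the other immunoglobulins.

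The 12 largest falls by the same rule were smaller than the rises and led by genes of the mesothelium, the cell layer that covers the lung. Upk3b (chr5:136038496-136044993), a uroplakin of mesothelial cells, was at 6.88, 30.4 and 13.0 CPM in the controls and 2.49 and 1.95 CPM after 65 Gy (log2 fold change -2.91 ± 0.68 SE, adjusted p = 0.011). Lrrn4 (chr2:132866686-132894010), another mesothelial gene, was at 4.59, 15.8 and 9.76 against 1.995 and 1.31 CPM (log2 fold change -2.60 ± 0.67 SE, adjusted p = 0.019). Control 3136 was the highest for both, and the log2 fold change of Upk3b moved to -2.16 without it (adjusted p = 0.041). Esm1 (chr13:113209659-113218104), a secreted proteoglycan of endothelial tip cells, was at 31.0, 35.5 and 27.2 against 8.69 and 10.2 CPM (log2 fold change -1.73 ± 0.29 SE, adjusted p = 0.0018). Mmp9 (chr2:164940326-164955850), the gelatinase of neutrophils, was at 85.0, 52.1 and 46.8 against 13.0 and 23.7 CPM (log2 fold change -1.74 ± 0.35 SE, adjusted p = 0.0051). Tubb1 (chr2:174450595-174458380), the beta-tubulin of platelets, was at 24.5, 17.2 and 20.3 against 5.03 and 7.66 CPM (log2 fold change -1.70 ± 0.33 SE, adjusted p = 0.0037). At these genes too the lack of overlap was set by the rule. Bex2 (24.2, 32.0 and 24.2 against 8.53 and 6.28 CPM), Olfm2 (8.68, 10.9 and 9.43 against 3.001 and 2.65 CPM), Pkhd1l1 (5.56, 15.5 and 9.13 against 3.68 and 2.46 CPM) and Tmem132d (9.55, 11.2 and 9.16 against 3.81 and 2.37 CPM) fell with log2 fold changes of -1.86, -1.77, -1.71 and -1.69. Abca17 (5.09, 5.85 and 5.41 against 2.36 and 1.02 CPM), Asprv1 (6.47, 5.10 and 4.96 against 1.17 and 2.30 CPM) and Fam71f2 (5.98, 5.67 and 5.80 against 1.53 and 2.17 CPM) completed the 12, with -1.69, -1.67 and -1.65. Only Esm1, Asprv1 and Fam71f2 of the 12 were still called with any 1 of the 5 libraries left out. Without 3138 the adjusted p was 0.088 for Upk3b, 0.1 for Lrrn4, 0.08 for Bex2, 0.14 for Olfm2, 0.089 for Mmp9, 0.092 for Pkhd1l1 and 0.072 for Tubb1. Without 3140 it was 0.1 for Upk3b, 0.15 for Lrrn4, 0.13 for Bex2, 0.16 for Olfm2, 0.18 for Pkhd1l1, 0.13 for Tmem132d and 0.15 for Abca17. Leaving out 3136 cost the calls of Lrrn4 (adjusted p = 0.065), Olfm2 (0.07) and Pkhd1l1 (0.093), and leaving out 3137 that of Olfm2 (0.0544). Without 3138 the log2 fold change of Abca17 was -2.41.

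**Figure D2:**
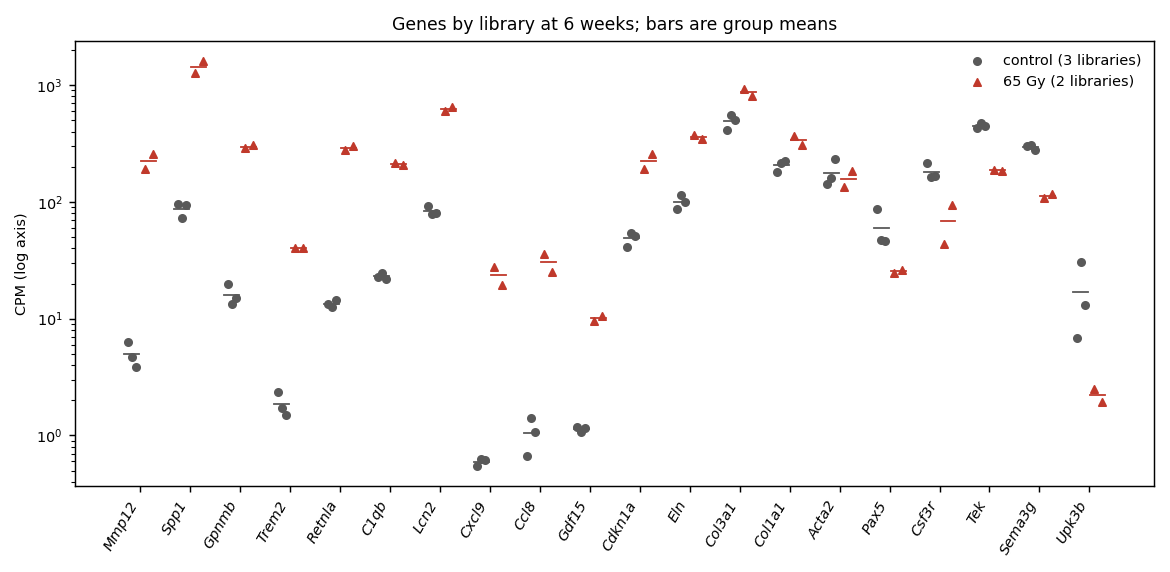
CPM of 20 genes in each of the 3 control libraries (circles) and the 2 libraries of 65 Gy (triangles) at 6 weeks on a log axis, with bars at the group means. The triangles of Mmp12, Spp1, Gpnmb, Trem2, Retnla and C1qb lie far above the circles, those of Tek and Sema3g lie below them, and those of Acta2 overlap them.

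Most of the listed genes by which macrophages take up and digest lipid and debris rose. Of 24 listed genes of lipid handling and the lysosome, 16 rose and none fell, and the median log2 fold change was 1.30, against 0.01 for all genes. Here and below, the lists were chosen with earlier results of these data known, so their counts are descriptions and not tests. The share of all genes tested to set beside each count is 4.34% called higher and 0.943% called lower. Msr1, a scavenger receptor for modified lipoprotein, was at 4.93, 2.64 and 3.98 CPM in the controls and 32.5 and 37.8 CPM after 65 Gy (log2 fold change 3.19 ± 0.36 SE, adjusted p = 5.7e-05). Lpl, lipoprotein lipase, was at 183, 153 and 181 against 489.7 and 552 CPM (log2 fold change 1.60 ± 0.18 SE, adjusted p = 5e-05). Apoe, the apolipoprotein that macrophages load with cholesterol, was at 376, 478 and 435 against 1630.0 and 1469 CPM (log2 fold change 1.85 ± 0.29 SE, adjusted p = 0.00097). Both irradiated libraries lay above every control at each of these genes. Plin2, which coats lipid droplets, was at 83.1, 88.9 and 82.7 against 204 and 178 CPM (log2 fold change 1.17 ± 0.17 SE, adjusted p = 0.00064), and Fabp5, a fatty acid carrier, at 77.6, 77.4 and 75.8 against 187 and 187 CPM (log2 fold change 1.28 ± 0.14 SE, adjusted p = 4.3e-05). Apoc1 (log2 fold change 1.48) and Lgals3, galectin 3 (1.71), rose as well. In the lysosome, Ctsd, cathepsin D, was at 568, 534 and 532 against 2688 and 2566 CPM (log2 fold change 2.27 ± 0.14 SE, adjusted p = 2.8e-07). Atp6v0d2, a proton pump subunit, was at 41.6, 36.8 and 37.9 against 167 and 178 CPM (log2 fold change 2.15 ± 0.14 SE, adjusted p = 5e-07). Cd68 (2.14 ± 0.23), Acp5, the tartrate-resistant acid phosphatase (2.23 ± 0.23), Ctsb, cathepsin B (1.31 ± 0.21), Lipa, the acid lipase (1.28 ± 0.13), and Gla, alpha-galactosidase (1.2 ± 0.18, all log2 ± SE), rose too. The count was 16 or 17 with any 1 of the 5 libraries left out. In a whole-tissue sample more cells of a type cannot be told apart from more RNA per cell, here and for every cell type below, and fewer cells cannot be told apart from less RNA per cell.

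Of 18 listed genes of resident and alternatively activated macrophages, 9 rose and none fell (median 1.25). The resident alveolar genes were mixed. Chil3, a chitinase-like protein, was at 402, 281 and 304 against 1141 and 1704 CPM (log2 fold change 2.11 ± 0.35 SE, adjusted p = 0.0013), Marco, a scavenger receptor, at 9.81, 7.17 and 8.26 against 35.8 and 20.3 CPM (log2 fold change 1.74 ± 0.31 SE, adjusted p = 0.0023) and Mrc1, the mannose receptor, at 89.7, 72.0 and 77.5 against 195 and 208 CPM (log2 fold change 1.34 ± 0.14 SE, adjusted p = 4.3e-05). Siglecf, the sialic acid receptor that marks alveolar macrophages, was at 16.7, 14.1 and 13.5 against 19.7 and 16.5 CPM and was not called (log2 fold change 0.29 ± 0.24). The call of Marco was lost without 3138 (log2 fold change 1.27 and adjusted p = 0.0551 without 3138). Among the genes of alternative activation, Ms4a7, a membrane protein of monocyte-derived macrophages, was at 2.12, 1.77 and 1.92 against 24.2 and 20.5 CPM (log2 fold change 3.53 ± 0.29 SE, adjusted p = 3.8e-06) and Mgl2, a galactose lectin, at 13.9, 17.6 and 14.6 against 57.6 and 68.8 CPM (log2 fold change 2.04 ± 0.23 SE, adjusted p = 7.3e-05). Cd209a (1.23 ± 0.22) and Clec10a (1.58 ± 0.31), both lectins, also rose, and without 3138 Clec10a had an adjusted p of 0.061. Without 3138 the list had 6 called genes in place of 9.

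Most of the listed matrix-degrading enzymes rose, and some of their inhibitors. Of 19 listed proteases and inhibitors 11 rose and 1 fell, with a median of 1.10. Mmp10, stromelysin 2, was listed at 0 counts in the 3 controls and was at 1.45 and 1.23 CPM after 65 Gy, at least 25.1-fold higher than a floor of 3 counts in a control library (0.0535 CPM). Mmp13, a collagenase, was at 1.09, 0.767 and 0.89 against 5.13 and 3.86 CPM (log2 fold change 2.29 ± 0.31 SE, adjusted p = 0.0003), and Mmp19 at 23.9, 24.3 and 23.0 against 88.9 and 102 CPM (log2 fold change 2.01 ± 0.17 SE, adjusted p = 4.7e-06). Mmp2, gelatinase A (107, 123 and 117 against 254 and 243 CPM), and Mmp14, its membrane-bound activator (68.8, 78.5 and 69.0 against 159 and 146 CPM), rose by log2 fold changes of 1.10 and 1.08. Mmp2 was not called without 3138 (adjusted p = 0.065), and Mmp14 neither without 3138 (0.1) nor without 3140 (0.058). Mmp9 was the only gene of the list to fall, and it had a log2 fold change of -1.37 without 3138 (adjusted p = 0.089). Of the cathepsins, Ctsk, an elastin- and collagen-cleaving enzyme, was at 18.2, 15.6 and 17.1 against 95.8 and 151 CPM (log2 fold change 2.86 ± 0.17 SE, adjusted p = 1.9e-07), and Ctss, which also processes the class II invariant chain, at 196, 169 and 158 against 1086 and 1295 CPM (log2 fold change 2.77 ± 0.38 SE, adjusted p = 0.00031). Of the 5 inhibitors listed 2 rose, with a median log2 fold change of 0.64 and a lowest of -0.59. These were Timp1 (4.17, 4.81 and 3.77 against 22.1 and 23.6 CPM, log2 fold change 2.42 ± 0.47 SE, adjusted p = 0.0037) and Serpina3n (81.0, 95.3 and 90.6 against 180.4 and 232 CPM, log2 fold change 1.21 ± 0.25 SE, adjusted p = 0.0062), the latter not called without 3140 (log2 fold change 1.02 and adjusted p = 0.071 without 3140).

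Collagens gave 4 rises and no fall among 21 listed chains at 6 weeks after 65 Gy, where 4.34% of all genes tested were called higher. The median of the list was 0.36. Col1a1, the main chain of fibrillar collagen I, was at 180.0, 216 and 223 CPM in the controls and 368 and 304 CPM after 65 Gy (log2 fold change 0.70 ± 0.24 SE, adjusted p = 0.059), and Col1a2 at 311, 369.6 and 375 against 513 and 462 CPM (0.47 ± 0.20, adjusted p = 0.13). Both were higher in each 65 Gy library than in each control, but neither was called. The groups did not overlap, in either direction, at 56.3% of all genes tested. Col3a1, the chain of collagen III, was at 412, 556 and 499.5 against 921 and 809 CPM and passed the adjusted p (0.018) but not the limit on the fold change (0.82 ± 0.21). Col5a2, which regulates fibril diameter, was at 106, 122 and 114 against 230.4 and 237 CPM (log2 fold change 1.04 ± 0.13 SE, adjusted p = 0.00012) and fell below the fold limit without 3135 (0.99). Col15a1, a collagen next to basement membranes, was at 9.67, 11.6 and 15.9 against 33.8 and 33.3 CPM (log2 fold change 1.44 ± 0.27 SE, adjusted p = 0.0036). Col11a1 (0.227, 0.25 and 0.105 against 0.726 and 0.478 CPM, 1.62 ± 0.43) and Col10a1, the short-chain collagen of hypertrophic cartilage, were called at levels under 1 CPM. Col10a1 had no count in the controls and was at 0.28 and 0.205 CPM after 65 Gy, at least 4.54-fold higher than the floor of 3 counts. Neither Col11a1 (adjusted p = 0.18) nor Col10a1 (0.077) was called without 3138, nor was Col11a1 without 3137 (0.075). Without 3138 the 4 called chains were 2. Col12a1, on the surface of fibrils, was at 106, 108 and 98.1 against 62.9 and 68.2 CPM (log2 fold change -0.67 ± 0.12, adjusted p = 0.0027) and short of the fold limit. The collagen sums of the list, 5061 to 5566 CPM in the controls and 6286 to 6794 CPM after 65 Gy, did not overlap.

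Of 11 listed genes of the elastic fibre, elastin alone was called higher and Fbn2 alone lower. Eln, elastin, was at 86.2, 114 and 99.3 CPM in the controls and 373 and 342 CPM after 65 Gy (log2 fold change 1.84 ± 0.28 SE, adjusted p = 0.00065), and no library left out cost its call. Ltbp2, a microfibril protein, was at 122, 124 and 124 against 224 and 235 CPM (0.89 ± 0.22), short of the fold limit. Fbn2, a fibrillin of development, fell from a low level (1.05, 1.75 and 1.66 against 0.66 and 0.444 CPM, -1.42 ± 0.42), and the call was lost without 3136, 3137, 3138 or 3140 (adjusted p = 0.086 to 0.23). P4ha3, a prolyl hydroxylase that stabilizes the collagen helix, was at 1.2001, 1.28 and 1.06 against 3.68 and 3.89 CPM (log2 fold change 1.68 ± 0.22 SE, adjusted p = 0.00026). None of the 5 lysyl oxidases, which join collagen and elastin fibres, was called, and Lox was at 84.2, 72.5 and 88.8 against 89.9 and 121 CPM (0.37 ± 0.13). In all, 2 of 24 genes of crosslinking and the elastic fibre rose and 1 fell (median 0.21). Over all genes tested 4.34% were called higher and 0.943% lower.

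Genes by which activated fibroblasts are usually recognized were not called. Acta2, the actin of myofibroblasts and smooth muscle, was at 143, 159.6 and 231 CPM in the controls and 133 and 182 CPM after 65 Gy (-0.17 ± 0.29, adjusted p = 0.74). Postn, periostin, was at 432, 452 and 431 against 345 and 469.8 CPM (-0.11 ± 0.20), and Cthrc1, a protein of fibrotic fibroblasts, at 2.92, 4.76 and 3.81 against 2.84 and 3.38 CPM (-0.30 ± 0.27). The groups overlapped at all 3 genes. Pdgfra, the receptor that marks lung fibroblasts, was at 389.6, 428 and 401 against 246 and 263 CPM (-0.68 ± 0.15, adjusted p = 0.0094) without reaching the fold limit. The 3 genes of this list of 27 that rose code for secreted adhesion proteins. These were Spp1, Tnc, tenascin C (17.6, 15.9 and 14.5 against 72.3 and 71.3 CPM, log2 fold change 2.17 ± 0.31 SE, adjusted p = 0.00045), and Fn1, fibronectin (635, 596 and 677 against 1455 and 1647 CPM, log2 fold change 1.29 ± 0.15 SE, adjusted p = 0.0001). All 3 were called with any 1 library left out, and the median of the list was 0.20. Over all genes tested 4.34% were called higher.

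The TGF-beta family, which drives collagen synthesis in fibroblasts, gave 2 genes that rose and 3 that fell among 27 (median -0.17). The shares over all genes tested were 4.34% higher and 0.943% lower. The 3 TGF-beta ligands were not called. Tgfb1 was at 81.6, 80.4 and 81.2 against 90.9 and 88.1 CPM (0.14 ± 0.21), Tgfb2 at 42.8, 45.8 and 45.5 against 33.9 and 44.3 CPM (-0.19 ± 0.15) and Tgfb3 at 32.4, 36.3 and 40.1 against 37.1 and 38.03 CPM (0.05 ± 0.17). The ligands that rose were Gdf15, a stress-induced member of the family (1.18, 1.07 and 1.17 against 9.58 and 10.5 CPM, log2 fold change 3.14 ± 0.13 SE, adjusted p = 3.4e-09), and Inhba, a subunit of activin (1.82, 1.28 and 1.80 against 6.35 and 7.77 CPM, log2 fold change 2.11 ± 0.46 SE, adjusted p = 0.0078). Ltbp4, which stores latent TGF-beta (678, 786 and 785 against 369.5 and 355 CPM, -1.05), Eng, the endothelial co-receptor endoglin (589, 555 and 604 against 256 and 304 CPM, -1.06), and Smad6, an inhibitor of BMP signalling (157, 148 and 181 against 53.4 and 78.0 CPM, -1.30), fell. Without 3138 none of these falls was called (adjusted p = 0.15, 0.087 and 0.19). Ltbp4 was also lost without 3136 (0.072), 3137 (0.068) or 3140 (0.15), Smad6 without 3137 (0.0544) or 3140 (0.0543), and Inhba without 3140 (0.057). The 3 falls were thus 2, 1, 0 and 1 without 3136, 3137, 3138 and 3140.

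DNA damage activates the factor p53. Of its targets, 3 of 4 listed under cell cycle arrest and none of 7 genes of apoptosis rose at 6 weeks. The 3 were Cdkn1a, Ccng1 and Gtse1, of which Gtse1 also belongs to the mitotic spindle. Cdkn1a, the cell cycle inhibitor p21, was at 41.0, 53.9 and 51.2 CPM in the controls and 191 and 259 CPM after 65 Gy (log2 fold change 2.21 ± 0.17 SE, adjusted p = 1.6e-06). Ccng1, cyclin G1, was at 100.2, 97.4 and 105 against 262 and 331 CPM (log2 fold change 1.56 ± 0.18 SE, adjusted p = 6.2e-05). Eda2r, of the TNF receptor family, was at 1.74, 1.93 and 2.29 against 15.7 and 19.4 CPM (log2 fold change 3.14 ± 0.25 SE, adjusted p = 2e-06), and Phlda3, an inhibitor of AKT, at 25.0, 26.2 and 25.8 against 72.0 and 75.6 CPM (log2 fold change 1.52 ± 0.13 SE, adjusted p = 6.1e-06). In these 4 genes both 65 Gy libraries lay well above every control. Gtse1 (1.18, 1.30 and 1.62 against 6.08 and 4.95 CPM, 2.01) and Ckap2 (2.09, 2.05 and 2.44 against 5.36 and 5.70 CPM, 1.33) are p53 targets that also belong to the mitotic spindle. Of 27 targets 6 rose and none fell (median 0.36). None of 8 genes of feedback and repair was called. The count was 9 without 3138 and 6 to 8 without another library.

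Of 18 listed genes of senescence and its secreted factors 8 rose and 1 fell (median 0.92). Cdkn2a, the inhibitor p16, was at 0.795, 0.588 and 0.489 against 1.73 and 1.08 CPM and was not called (log2 fold change 1.17 ± 0.41, adjusted p = 0.073), and Cdkn2b was at 27.9, 28.0 and 28.1 against 24.1 and 30.8 CPM (-0.03 ± 0.13). Among the secreted factors, Cxcl1 was at 0.795, 0.749 and 0.89 against 4.09 and 6.16 CPM (log2 fold change 2.66 ± 0.42 SE, adjusted p = 0.001) and Ccl2 at 0.86, 0.481 and 0.611 against 4.95 and 4.23 CPM (log2 fold change 2.81 ± 0.48 SE, adjusted p = 0.0017). Areg, amphiregulin, a ligand of the EGF receptor, was at 3.68, 2.34 and 3.002 against 6.66 and 13.2 CPM (log2 fold change 1.72 ± 0.42 SE, adjusted p = 0.015), and was not called without 3136 (adjusted p = 0.06) or 3140 (0.19). Igfbp3, which binds insulin-like growth factors, fell (90.7, 109 and 94.3 against 43.0 and 41.5 CPM, log2 fold change -1.21 ± 0.27 SE, adjusted p = 0.0095), but not without 3138 (adjusted p = 0.08) or 3140 (0.078).

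All 35 mitotic genes had a positive log2 fold change, and 7 of them rose (median 0.75). Mki67, the marker of cycling cells, was at 35.0, 22.6 and 22.4 CPM in the controls and 51.9 and 36.4 CPM after 65 Gy and was not called (0.73 ± 0.24, adjusted p = 0.059), nor was Top2a (18.1, 14.9 and 14.8 against 31.2 and 28.4 CPM, 0.90 ± 0.24). Cdk1, the mitotic kinase, was at 4.14, 2.995 and 3.46 against 8.49 and 8.24 CPM (log2 fold change 1.24 ± 0.28 SE, adjusted p = 0.0084). Gins2 (1.52, 1.62 and 1.55 against 4.11 and 4.05 CPM, 1.38) and Rrm2 (5.43, 4.33 and 3.94 against 10.3 and 9.49 CPM, 1.12) of DNA replication, and Kif20a (1.14), Ccnb1 (1.23), Nuf2 (1.24) and Ttk (1.01) of mitosis, were the other called genes. None of the 7 was called without 3138 (adjusted p = 0.062 for Gins2, 0.063 for Cdk1, 0.079 for Rrm2, 0.096 for Ccnb1, 0.1 for Kif20a, 0.11 for Nuf2 and 0.11 for Ttk). The count was 4 without 3136, 4 without 3140 and 11 without 3135, whose Mki67 was the highest of the controls.

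**Figure D3:**
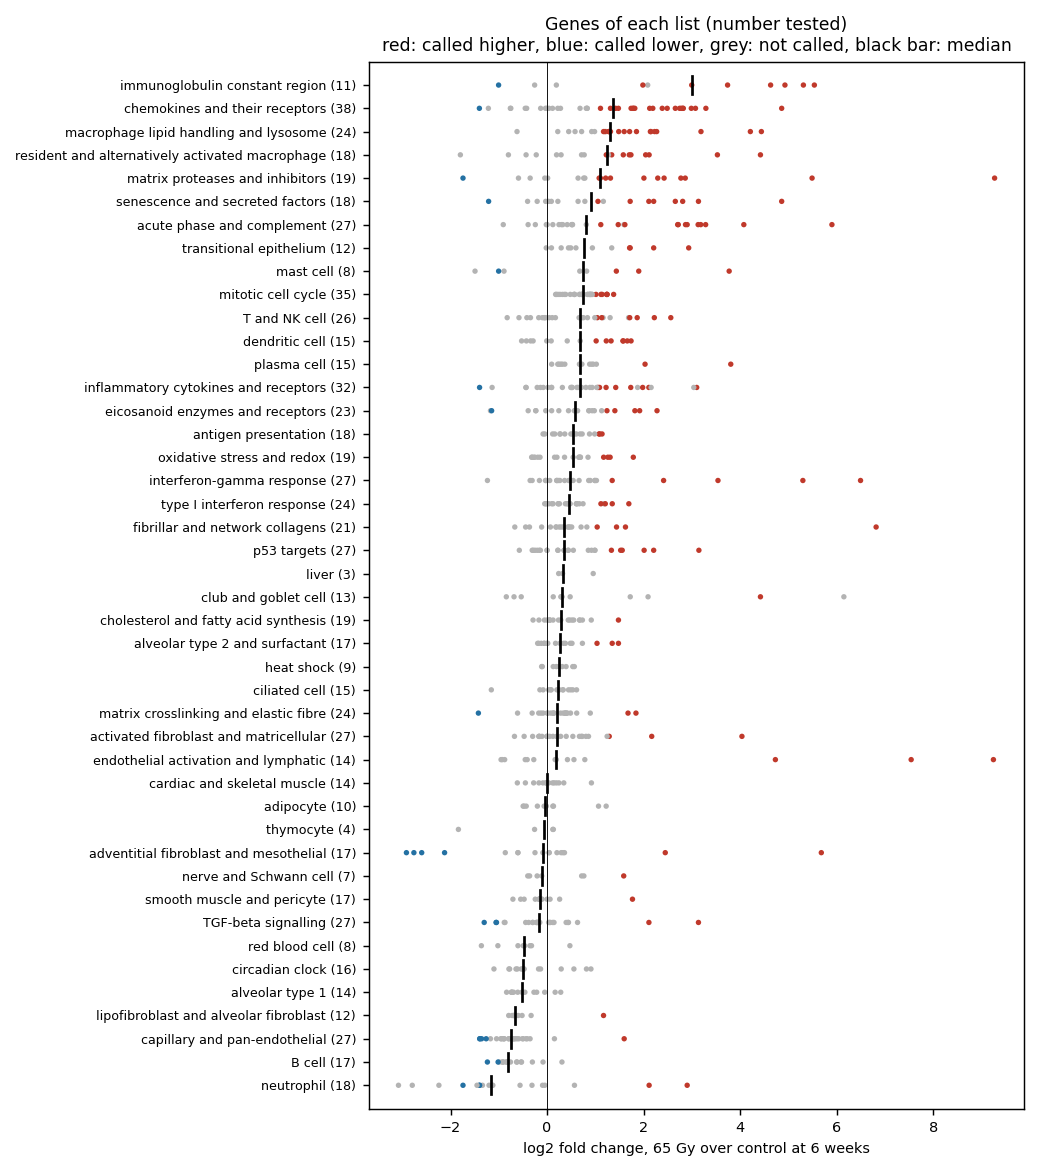
Log2 fold change of 65 Gy over control at 6 weeks (horizontal axis) for the genes of 44 lists (rows, with the number of genes tested), ordered by the median (black bar), with red for called higher, blue for called lower and grey for not called. The immunoglobulin constant regions have the highest median at 3.0 and the neutrophil genes the lowest at -1.17, and the 27 capillary genes lie almost all below 0.

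Chemokines were among the most changed groups, and their 38 listed genes gave 21 that rose and 1 that fell (median 1.37). All 5 monocyte-attracting genes rose. Ccl2 and Ccl8 are given above, Ccl7 was at 0.243, 0.571 and 0.436 against 3.001 and 2.58 CPM (2.75 ± 0.57), Ccl12 at 0.422, 0.481 and 0.768 against 3.78 and 4.11 CPM (2.82 ± 0.28) and their receptor Ccr2 at 49.4, 32.6 and 35.2 against 96.3 and 121 CPM (1.48 ± 0.33). Ccr2 was not called without 3140 (log2 fold change 1.30 and adjusted p = 0.074 without 3140). Of 9 genes tied to type 2 immunity 7 rose. Ccl17 and Ccl22, which draw regulatory and helper T cells, were at 2.76, 4.14 and 2.13 against 23.4 and 24.3 CPM (log2 fold change 2.99 ± 0.38 SE, adjusted p = 0.00016) and at 8.95, 10.5 and 7.47 against 32.5 and 27.4 CPM (log2 fold change 1.74 ± 0.28 SE, adjusted p = 0.0012). Ccl6 and Ccl9, abundant in mouse myeloid cells, were at 194, 165 and 146 against 791 and 744 CPM (log2 fold change 2.19 ± 0.22 SE, adjusted p = 2.4e-05) and at 17.2, 13.5 and 12.5 against 65.2 and 85.5 CPM (log2 fold change 2.39 ± 0.44 SE, adjusted p = 0.0031). Ccl11, eotaxin, was at 3.08, 3.49 and 4.82 against 9.75 and 10.6 CPM (1.42 ± 0.24). The receptors Ccr4 (0.876, 0.695 and 0.454 against 3.20 and 2.71 CPM, 2.12) and Ccr8 (0.535, 0.267 and 0.576 against 1.63 and 1.54 CPM, 1.78) rose from levels under 1 CPM. Ccr4 was not called without 3138 (adjusted p = 0.059), and Ccr8 without any of 3136 (0.082), 3138 (0.11) and 3140 (0.081).

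Chemokines of T cells and neutrophils gave smaller numbers of calls. Cxcr6, a receptor of T cells, was at 4.14, 3.73 and 4.03 against 15.7 and 12.3 CPM (log2 fold change 1.82 ± 0.28 SE, adjusted p = 0.00082) and Cx3cr1, the fractalkine receptor, at 14.7, 13.1 and 11.7 against 37.3 and 28.2 CPM (1.31 ± 0.25). Ccl3 was at 0.941, 1.37 and 1.01 against 2.67 and 2.099 CPM (1.11 ± 0.32) and was lost without 3135, 3137, 3138 or 3140 (adjusted p = 0.071 to 0.2), as Cx3cr1 was without 3138 (0.062). The neutrophil chemokines Cxcl1 and Cxcl5 rose, the latter from a trace (0.114, 0.178 and 0.0873 against 1.09 and 0.666 CPM, 2.78 ± 0.55) and not without 3138 (adjusted p = 0.059). Cxcl3, with few counts, was at 0, 0.0891 and 0.0698 against 0.511 and 0.393 CPM, and its call was lost with any library left out (adjusted p = 0.075 to 0.18). Cxcr2, the receptor for these ligands on neutrophils, fell from 37.3, 28.3 and 30.5 CPM to 9.05 and 15.2 CPM (log2 fold change -1.40 ± 0.23 SE, adjusted p = 0.0012). Of the lymphoid-organizing chemokines, Cxcl13, which draws B cells into follicles, was at 1.96, 2.55 and 2.53 against 8.39 and 7.83 CPM (log2 fold change 1.79 ± 0.34 SE, adjusted p = 0.0034), and Ccl20 at 0.178, 0.16 and 0.401 against 3.30 and 1.55 CPM (log2 fold change 3.29 ± 0.59 SE, adjusted p = 0.0024). The log2 fold change of Ccl20 was 2.65 without 3138, and the other 7 genes of that role were not called.

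Among 32 cytokines and receptors 8 rose and 1 fell (median 0.68). Il33, an alarmin of epithelial and stromal nuclei, was at 89.0, 79.3 and 87.6 CPM in the controls and 196 and 201 CPM after 65 Gy (log2 fold change 1.22 ± 0.19 SE, adjusted p = 0.00096). Lif, a cytokine of the IL-6 family, was at 3.97, 1.997 and 2.23 against 21.5 and 25.6 CPM (log2 fold change 3.10 ± 0.37 SE, adjusted p = 9.9e-05), and Socs3, the feedback inhibitor that this family induces, at 36.3, 26.7 and 29.3 against 102 and 103 CPM (log2 fold change 1.73 ± 0.20 SE, adjusted p = 6.2e-05). Il6 itself rested on 3140: it was at 1.14, 0.998 and 0.576 against 1.98 and 5.84 CPM (log2 fold change 2.11 ± 0.58 SE, adjusted p = 0.025), and its log2 fold change was 1.13 without 3140 (adjusted p = 0.35). It was also lost without 3135 (0.0506), 3136 (0.065) or 3137 (0.086). Il1b overlapped between the groups (54.0, 33.9 and 33.1 against 22.1 and 47.8 CPM, -0.21 ± 0.42), while Il1a was at 5.11, 3.80 and 3.33 against 8.66 and 8.30 CPM (1.05 ± 0.22) and lost its call without 3137 (log2 fold change 0.93) or 3138 (adjusted p = 0.0523). The receptor subunit Csf2rb (62.9, 53.3 and 53.4 against 146 and 157 CPM, 1.42 ± 0.31), shared by GM-CSF and related cytokines, rose. Its relative Csf2rb2 (16.96, 14.9 and 15.1 against 62.9 and 60.6 CPM, 1.98 ± 0.38) also rose, and as near-identical copies they can share reads. Csf2rb was not called without 3140 (adjusted p = 0.0507). Tnfrsf1b, a TNF receptor, was at 72.0, 62.1 and 61.6 against 144 and 133 CPM (1.09 ± 0.29) and was lost without 3136, 3137, 3138 or 3140 (adjusted p = 0.068 to 0.13). The gene that fell was Csf3r, which is described with the neutrophil genes, and 5 genes rose in place of 8 without 3137 or 3140.

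Acute phase and complement genes gave 12 rises and no fall among 27 (median 0.81). Saa3, the serum amyloid A of macrophages and epithelium, was at 0.276, 0.285 and 0.279 CPM in the controls and 18.8 and 14.9 CPM after 65 Gy (log2 fold change 5.90 ± 0.64 SE, adjusted p = 4.7e-05). Lcn2, lipocalin 2, which withholds iron from bacteria, was at 91.3, 79.2 and 79.6 against 602 and 644 CPM (log2 fold change 2.90 ± 0.21 SE, adjusted p = 1.1e-06). Orm1, an acid glycoprotein, was at 0.276, 0.125 and 1.15 against 3.28 and 4.28 CPM (log2 fold change 2.87 ± 0.60 SE, adjusted p = 0.006), and its log2 fold change was 4.21 without 3137. Saa1 (0, 0.0535 and 0 against 0.478 and 0.171 CPM) and Orm2 (0, 0.0713 and 0.0524 against 0.346 and 0.393 CPM) were called from 4 counts or fewer in a control, and both have near-identical copies. Saa1 was lost without 3135 (adjusted p = 0.0543), 3137 (0.0514) or 3138 (0.16). The 3 chains of C1q, which macrophages make, rose: C1qa was at 26.6, 28.6 and 26.6 against 184 and 174 CPM, C1qb at 22.6, 24.7 and 21.8 against 213 and 205 CPM and C1qc at 23.0, 25.0 and 22.1 against 159.9 and 145 CPM (log2 fold changes 2.72 ± 0.30, 3.18 ± 0.27 and 2.70 ± 0.30). C4b was at 145, 232 and 187 against 421 and 392.5 CPM (log2 fold change 1.11 ± 0.22 SE, adjusted p = 0.004) and below the fold limit without 3135 (0.96), and Cfp, properdin, at 17.3, 13.4 and 15.3 against 45.002 and 40.1 CPM (log2 fold change 1.47 ± 0.28 SE, adjusted p = 0.0036). The receptors C3ar1 (3.52, 3.08 and 2.86 against 32.9 and 28.6 CPM, log2 fold change 3.28 ± 0.39 SE, adjusted p = 0.00011) and Itgax, the integrin CD11c (89.7, 72.0 and 67.1 against 233 and 232 CPM, log2 fold change 1.61 ± 0.27 SE, adjusted p = 0.0016), were the other genes that rose.

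Of the interferon-gamma list 5 of 27 genes rose, and of the type I list 4 of 24, where 4.34% of all genes tested were called higher. Interferon-gamma is made by T and NK cells and acts on macrophages and many other cells, and type I interferons act through a complex that binds the interferon-stimulated response element. In the interferon-gamma list 4 of the 5 genes that rose are Cxcl9, Cxcl10, Cxcl11 and their receptor Cxcr3. Cxcl10 was at 0.778, 0.927 and 0.978 CPM in the controls and 11.9 and 8.94 CPM after 65 Gy (log2 fold change 3.54 ± 0.55 SE, adjusted p = 0.0009). Cxcl11 had no counts in the controls and was at 0.132 and 0.256 CPM, at least 3.63-fold higher than the floor of 3 counts. Cxcr3 was at 2.71, 2.44 and 2.02 against 7.22 and 4.97 CPM (log2 fold change 1.35 ± 0.34 SE, adjusted p = 0.017). Without 3138 Cxcr3 had an adjusted p of 0.17, and without 3136 or 3137 of 0.0504 and 0.062, and Cxcl11 had 0.078 without 3140. Ifng itself was at 0.276, 0.25 and 0.349 against 0.676 and 0.41 CPM and was not called (0.89 ± 0.52, adjusted p = 0.27). Among 13 guanylate-binding proteins and immunity-related GTPases, which act against pathogens inside cells, Gbp2b alone rose (0.308, 0.267 and 0.297 against 1.58 and 1.54 CPM, 2.41 ± 0.66). It has near-identical relatives and was lost with any 1 library left out (adjusted p = 0.067 to 0.11). The median of the list was 0.47, and 3 genes were called in place of 5 without 3136, 3137, 3138 or 3140.

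The 4 genes of the type I response that rose were antiviral effectors (list median 0.45). Isg15, a ubiquitin-like protein, was at 5.06, 6.26 and 5.38 CPM in the controls and 14.4 and 14.0 CPM after 65 Gy (log2 fold change 1.35 ± 0.26 SE, adjusted p = 0.0038), and Mx1, an antiviral GTPase, at 3.81, 2.91 and 2.74 against 10.7 and 9.69 CPM (log2 fold change 1.69 ± 0.32 SE, adjusted p = 0.0036). Ifit1 (18.7, 20.4 and 17.2 against 46.2 and 35.1 CPM, 1.11 ± 0.19) was below the fold limit without 3138 (0.90), and Oas1a (7.05, 6.88 and 7.68 against 16.4 and 16.9 CPM, 1.21 ± 0.33) was lost with any 1 library left out (adjusted p = 0.056 to 0.11). The count was 2 without 3138. The regulators Irf7 (19.9, 23.3 and 22.0 against 37.3 and 35.6 CPM, 0.74 ± 0.35) and Irf9 (38.6, 44.9 and 43.5 against 53.9 and 45.3 CPM, 0.23 ± 0.14) were not called. In antigen presentation the 3 genes that rose of 18 were the class II chains H2-Aa (484, 521 and 440.5 against 1109 and 1013 CPM, log2 fold change 1.14 ± 0.26 SE, adjusted p = 0.01), H2-Ab1 (323, 358 and 308 against 737 and 652 CPM, 1.08) and H2-Eb1 (279, 313 and 261 against 636 and 573 CPM, 1.09). Cd74, the invariant chain, was just short of the limit at 1015, 1102 and 991 against 2157 and 1944 CPM (0.99 ± 0.28, adjusted p = 0.029). Without 3138 none of the 3 chains was called (adjusted p = 0.083, 0.14 and 0.18), and 1 or 2 were with another library left out, H2-Eb1 in none of these fits (adjusted p = 0.076 to 0.18). No class I gene of the list was called, and 4.34% of all genes tested were called higher.

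The promoters of 3 of these genes are shown because they hold the motif of the interferon-stimulated response element, as 300 bases of RefSeq sequence in GRCm38.p6, from 250 bases before to 50 bases after the gene's start, 5′ to 3′ on the strand of the gene. Cxcl9 (chr5:92328030-92328329, minus strand) and Cxcl10 (chr5:92348840-92349139, minus strand) had the larger rises, and Isg15 (chr4:156200769-156201068, minus strand) a smaller one. Capitals mark every match to the core GAAANNGAA, searched on both strands, and the 3 matches in Isg15 overlap. The promoter of Ccl8, which rose more than Cxcl10, was also searched and holds no match.
Cxcl9: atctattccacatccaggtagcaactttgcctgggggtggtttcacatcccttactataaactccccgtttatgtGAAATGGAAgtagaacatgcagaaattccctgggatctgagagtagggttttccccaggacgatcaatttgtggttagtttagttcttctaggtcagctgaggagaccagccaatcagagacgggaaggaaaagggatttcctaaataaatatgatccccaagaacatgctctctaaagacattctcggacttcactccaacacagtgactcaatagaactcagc
Cxcl10: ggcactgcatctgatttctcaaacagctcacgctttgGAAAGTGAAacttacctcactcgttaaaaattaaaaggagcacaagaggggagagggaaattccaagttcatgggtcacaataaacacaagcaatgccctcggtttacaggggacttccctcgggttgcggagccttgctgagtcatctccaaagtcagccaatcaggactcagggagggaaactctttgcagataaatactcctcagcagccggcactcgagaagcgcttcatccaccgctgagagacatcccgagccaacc
Isg15: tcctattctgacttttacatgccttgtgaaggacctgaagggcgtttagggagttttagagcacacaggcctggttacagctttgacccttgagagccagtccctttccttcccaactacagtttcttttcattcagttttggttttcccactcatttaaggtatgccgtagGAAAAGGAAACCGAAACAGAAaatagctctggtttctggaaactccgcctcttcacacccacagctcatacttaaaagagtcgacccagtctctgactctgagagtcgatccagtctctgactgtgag
The core was present in 13.1% of the 679 promoters of genes that rose, in 5.84% of the 154 of genes that fell and in 7.62% of the 15763 promoters of all genes tested that had one. Of the genes of the interferon-gamma and type I lists, 14 of 20 and 13 of 18 promoters held it, and most of these genes were not called: Gbp2, Gbp3, Gbp7, Irgm2 and Ifitm3 hold the core and had log2 fold changes of 0.26, 0.05, -0.31, -0.02 and 0.03. The STAT core TTCNNNGAA was in 8 of the 20 and 5 of the 18 promoters of these lists (40% and 27.8%), and the E-box CACGTG in none of them. Over the genes that rose, the other motifs were near their share in all promoters. The STAT core was in 7.36% of the promoters of genes that rose against 7.40% of all, the E-box in 7.22% against 8.86%, and CCAAT in 38% against 37.7%. In the promoters of genes that fell these shares were 9.09%, 9.74% and 33.8%. These shares are descriptions of letters in a window and were not tested.

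Antibody genes rose, while 16 of 17 genes of mature B cells had a negative log2 fold change. Of 11 immunoglobulin constant regions 7 rose and 1 fell, with a median of 3.0. Igha, the heavy chain of mucosal IgA, was at 52.1, 103 and 76.5 CPM in the controls and 1143 and 920.2 CPM after 65 Gy (log2 fold change 3.74 ± 0.61 SE, adjusted p = 0.0013), and the irradiated libraries were alike. Ighg2c, of IgG2c, was at 1.14, 0.571 and 0.628 against 34.2 and 38.7 CPM (log2 fold change 5.54 ± 1.18 SE, adjusted p = 0.0069), and Ighg1 at 0.714, 0.143 and 0.838 against 23.3 and 11.4 CPM (log2 fold change 4.93 ± 0.64 SE, adjusted p = 0.00022). Both lay far above every control in both libraries. The other isotypes differed between the 65 Gy libraries. Ighg2b was at 7.38, 3.39 and 3.05 against 175 and 54.3 CPM (log2 fold change 4.63 ± 0.91 SE, adjusted p = 0.0042) and had a log2 fold change of 3.56 and adjusted p = 0.0532 without 3138, and of 5.24 without 3140. Ighg3 was at 0.697, 0.339 and 0.244 against 33.2 and 1.06 CPM, and its log2 fold change of 5.31 was 1.30 without 3138 (adjusted p = 0.65) and 6.26 without 3140. It was also lost when any 1 control was left out (adjusted p = 0.0529 to 0.073). Ighm, of IgM, was at 730.2, 248 and 253 against 3231 and 249 CPM and was not called (2.08 ± 0.76, adjusted p = 0.079), and 3140 lay at the level of the controls. Of the light chains, Igkc was at 212, 109 and 99.99 against 1564 and 676 CPM (log2 fold change 3.0 ± 0.55 SE, adjusted p = 0.0029) and Iglc1 at 10.7, 8.49 and 6.21 against 39.5 and 27.4 CPM (log2 fold change 1.98 ± 0.34 SE, adjusted p = 0.0018). Without 3138 Igkc had a log2 fold change of 2.27 and an adjusted p of 0.052, Ighg1 4.33, and 4 of the 7 constant regions were still called. Jchain, which joins IgA and IgM into polymers, was at 64.7, 27.1 and 20.0 against 733 and 309 CPM (log2 fold change 3.80 ± 0.68 SE, adjusted p = 0.0023), with a log2 fold change of 3.05 without 3138 and 4.47 without 3135. Constant regions of the IgG subclasses are similar to each other and can share reads.

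**Figure D4:**
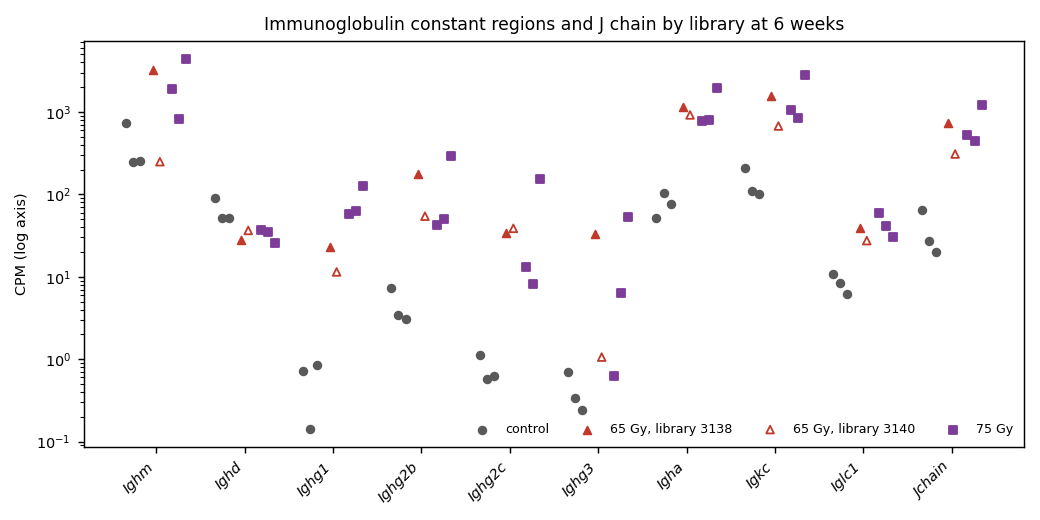
CPM on a log axis of 9 immunoglobulin constant regions and Jchain in each library at 6 weeks, for controls (circles), 65 Gy (triangles, with 3140 open) and 75 Gy (squares). The open triangle of 3140 lies at the level of the controls for Ighm and close to them for Ighg3, while Igha, Ighg1 and Ighg2c lie above every control in both 65 Gy libraries.

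The V segments, which give an antibody its binding site, rose in all 3 chain families and differed by library. Of 187 genes with the symbol of an antibody V segment, a few of them typed otherwise in the file, 59 rose and none fell, namely 30 of 93 heavy-chain, 27 of 91 kappa and 2 of 3 lambda segments. The 59 were 43, 30 and 28 without control 3135, 3136 and 3137, 22 without 3138 and 44 without 3140. Without 3138 the heavy-chain count was 11 and the kappa count 10, and without 3137 they were 11 and 16. Their summed level was 125 to 293 CPM in the controls, 2310.0 CPM in 3138 and 807 CPM in 3140. The largest rises were single segments of 1 library. Igkv6-13 was at 0.584, 0.802 and 0.297 against 315 and 0.393 CPM and Ighv1-63 at 0.341, 0.0713 and 0.0698 against 65.8 and 0.188 CPM, both high in 3138 alone. Ighv4-1 was at 0.487, 0.553 and 0.314 against 0.66 and 97.9 CPM and high in 3140 alone. At 110 of the 187 segments the 65 Gy libraries were at least 2-fold apart, and 116 were higher in 3138. V segments are close copies of each other, so reads can be split between them.

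Of 15 listed genes of plasma cells, which secrete antibody, 2 rose, Jchain and Slamf7 (10.04, 8.41 and 7.58 against 38.3 and 32.5 CPM, log2 fold change 2.03 ± 0.37 SE, adjusted p = 0.0028), and all 15 had a positive log2 fold change (median 0.68). Xbp1 (177, 179 and 161 against 222 and 197 CPM, 0.28 ± 0.12), Prdm1 (20.2, 15.05 and 15.9 against 22.8 and 17.7 CPM, 0.25 ± 0.21) and Irf4 (12.4, 6.88 and 8.68 against 19.3 and 10.6 CPM, 0.68 ± 0.28), the regulators of the plasma cell state, were not called. Of 17 genes of mature B cells 2 fell and 16 had a negative log2 fold change (median -0.81). Over all genes tested 4.34% were called higher and 0.943% lower. Pax5, the factor of B cell identity, was at 86.1, 47.1 and 46.6 CPM in the controls and 24.8 and 26.1 CPM after 65 Gy (log2 fold change -1.24 ± 0.28 SE, adjusted p = 0.0099), and Fcmr, the IgM receptor, at 43.4, 25.8 and 25.0 against 14.6 and 16.5 CPM (log2 fold change -1.02 ± 0.27 SE, adjusted p = 0.023). Cd79a (112, 68.2 and 62.8 against 41.8 and 42.9 CPM, -0.94 ± 0.25), a signalling chain of the B cell receptor, passed the adjusted p (0.023) but not the fold limit, and Ighd, of naive B cells, fell (89.4, 51.4 and 52.0 against 27.6 and 36.5 CPM, -1.01). Control 3135 was the highest at each of these genes. Without it the median log2 fold change of the list was -0.52, Pax5 had -0.88, Fcmr -0.71 and Ighd -0.69, and none was called. With all 5 libraries the Ighd log2 fold change was short of the limit under each of the 7 other settings tried (-0.979 to -0.999), and the Fcmr log2 fold change with upper-quartile factors, with no filter and in the fit of the 8 libraries of 6 weeks (-0.989 to -0.997). Without 3138 and without 3140 no gene of the list was called either, with an adjusted p for Pax5 of 0.095 and 0.068 and for Fcmr of 0.17 and 0.097, while 5 and 6 genes were called without 3136 and 3137. Without 3138 the adjusted p of Ighd was 0.17. The summed level of the 17 genes was 544 to 912 CPM in the controls and 397 to 402 CPM after 65 Gy, and without 3135 the control range was 544 to 547 CPM.

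Genes of lymphocyte entry appeared from nearly nothing. Glycam1 and Madcam1, ligands on high endothelial venules by which lymphocytes leave the blood, had no counts in any control. Glycam1 was at 1.78 and 0.853 CPM after 65 Gy, at least 24.6-fold higher than the floor (at least 15.96-fold in 3140 alone), and Madcam1 at 0.379 and 0.427 CPM, at least 7.53-fold higher. Ackr1, a chemokine-carrying receptor of venules, was at 0.0973, 0 and 0.227 against 3.76 and 2.099 CPM (log2 fold change 4.73 ± 0.81 SE, adjusted p = 0.0018), with a log2 fold change of 5.80 without control 3137. These 3 were the genes that rose among 14 of endothelial activation and lymphatics, and Vcam1 (74.1, 87.9 and 74.1 against 108 and 103 CPM, 0.42 ± 0.18), Selp (7.12, 6.40 and 5.85 against 13.0 and 9.17 CPM, 0.78 ± 0.20) and Sele (1.91, 1.69 and 1.87 against 2.64 and 2.73 CPM, 0.56 ± 0.37) were not called.

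The T cell genes that rose were Cd4 and 5 of 9 regulatory and checkpoint genes. Pdcd1, the receptor PD-1, was at 0.535, 0.41 and 0.576 CPM in the controls and 3.68 and 2.34 CPM after 65 Gy (log2 fold change 2.56 ± 0.42 SE, adjusted p = 0.0014), and Tnfrsf9, the costimulator 4-1BB, at 1.22, 1.05 and 1.15 against 5.24 and 5.41 CPM (log2 fold change 2.22 ± 0.31 SE, adjusted p = 0.00033). Both were called with any library left out. Foxp3, the factor of regulatory T cells, was at 2.35, 1.60 and 1.27 against 5.90 and 5.55 CPM (log2 fold change 1.71 ± 0.45 SE, adjusted p = 0.021), Ctla4 at 3.73, 3.14 and 2.39 against 9.14 and 13.4 CPM (log2 fold change 1.87 ± 0.53 SE, adjusted p = 0.028) and Havcr2, TIM-3, at 11.5, 12.7 and 9.90 against 21.4 and 28.4 CPM (log2 fold change 1.13 ± 0.22 SE, adjusted p = 0.0044). Foxp3 was lost without 3136, 3137, 3138 or 3140 (adjusted p = 0.071 to 0.11), Ctla4 when any 1 library was left out (0.057 to 0.17) and Havcr2 without 3140 (0.065). Cd3e, a chain of the T cell receptor complex, was at 9.47, 5.85 and 6.09 against 12.1 and 11.96 CPM (0.75 ± 0.30, adjusted p = 0.1), and Cd3g passed the adjusted p at 11.7, 8.88 and 8.12 against 17.2 and 17.03 CPM (0.84 ± 0.25). Cd4 was at 11.0, 7.35 and 7.77 against 19.5 and 16.3 CPM (1.04) and was lost without 3136, 3137, 3138 or 3140 (adjusted p = 0.062 to 0.16). No cytotoxic gene rose, and Prf1, perforin, was at 14.1, 11.8 and 10.4 against 7.32 and 6.32 CPM (-0.83 ± 0.19, adjusted p = 0.011). Of 26 genes 6 rose (median 0.69), and the count was 3 without 3136, 3137 or 3138 and 2 without 3140.

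Dendritic cell genes rose in the conventional type. Of 10 genes of conventional cells 7 rose, and none of 5 plasmacytoid genes was called. Xcr1, the receptor of cross-presenting cells, was at 2.71, 3.17 and 2.41 CPM in the controls and 9.27 and 8.21 CPM after 65 Gy (log2 fold change 1.66 ± 0.27 SE, adjusted p = 0.0014), Itgae, the integrin CD103, at 8.82, 10.6 and 8.69 against 23.8 and 23.2 CPM (log2 fold change 1.33 ± 0.26 SE, adjusted p = 0.0041), and Fscn1, of migrating cells, at 11.9, 14.8 and 11.5 against 39.5 and 36.0 CPM (log2 fold change 1.57 ± 0.32 SE, adjusted p = 0.0053). Flt3, the receptor for their growth factor, was at 6.26, 7.17 and 5.97 against 12.1 and 14.1 CPM (1.02) and was lost without 3135 or 3137 (log2 fold changes 0.99 and 0.96) and without 3138 or 3140 (adjusted p = 0.059 and 0.11).

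Of 18 neutrophil genes 15 had a negative log2 fold change and 3 fell. Csf3r, the G-CSF receptor of mature neutrophils, was at 214, 162 and 167 CPM in the controls and 44.0 and 93.3 CPM after 65 Gy (log2 fold change -1.40 ± 0.34 SE, adjusted p = 0.013). It had a log2 fold change of -0.96 and adjusted p = 0.16 without 3138, and of -2.04 without 3140. The other falls were those of Mmp9 and Cxcr2, and the fall of Cxcr2 held with any library left out. The count of falls was 1 without 3138 and 5 without 3140. The 2 genes that rose, Lcn2 and Chil3, are also genes of epithelium and macrophages. The granule genes Ngp (41.3, 1.73 and 3.05 against 3.35 and 1.08 CPM), Camp (9.39, 0.357 and 0.209 against 0.594 and 0.188 CPM) and Ltf (36.5, 5.13 and 41.2 against 26.02 and 25.7 CPM) were not called and varied several-fold among the controls. The median of -1.17 was -0.09 without control 3135 and -1.72 without 3140. Mast cell proteases were at low levels. Cpa3 was at 0.762, 0.927 and 1.40 against 3.17 and 4.51 CPM (log2 fold change 1.90 ± 0.42 SE, adjusted p = 0.0084), Mcpt4 at 0.584, 0.749 and 0.96 against 1.86 and 2.27 CPM (1.43 ± 0.45) and Tpsb2 at 0, 0.0713 and 0.384 against 1.35 and 2.80 CPM (3.77 ± 1.05). Mcpt4 was lost with any library left out (adjusted p = 0.067 to 0.21), Cpa3 without 3140 (0.078) and Tpsb2 without 3135 (0.083), 3136 (0.095), 3138 (0.063) or 3140 (0.15). In all, 3 of 8 mast cell genes rose and 1 fell (median 0.75), and none rose without 3140, 1 without 3135, 3136 or 3138 and 2 without 3137. Tpsb2 had a log2 fold change of 3.17 without 3135, 5.84 without 3137 and 3.15 without 3140. Kit, which lung endothelium also expresses, fell from 226, 247 and 212 CPM to 122 and 106 CPM (-1.0 ± 0.22), and it was not called without 3136 (log2 fold change -0.94), 3138 (adjusted p = 0.0553) or 3140 (0.093). With all 5 libraries the Kit log2 fold change was also short of the limit under each of the 7 other settings (-0.978 to -0.997).

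Alveolar epithelium differed by type. Type 2 cells make surfactant, and type 1 cells form the thin gas exchange surface. Of 17 type 2 genes 3 rose and none fell (median 0.27), where 4.34% of all genes tested were called higher. Scd1, the desaturase of surfactant lipid, was at 1938, 2009 and 2334 CPM in the controls and 5295 and 6367 CPM after 65 Gy (log2 fold change 1.48 ± 0.19 SE, adjusted p = 0.00018), and Lyz2, lysozyme, which macrophages also express, at 4296, 4451 and 3986 against 11527 and 10091 CPM (log2 fold change 1.35 ± 0.22 SE, adjusted p = 0.0011). Sftpd was at 542, 599 and 558 against 1174 and 1145 CPM (1.03 ± 0.28) and was lost with any library left out (adjusted p = 0.057 to 0.12). Sftpc (0.48 ± 0.26), Sftpb (3351, 3852 and 3589.7 against 3859 and 3402 CPM, 0.01 ± 0.16) and Sftpa1 (3121, 3399 and 3319 against 4125 and 4185 CPM, 0.34 ± 0.24) were not called. No type 1 gene of 14 was called, but 12 had a negative log2 fold change, 9 of them with an adjusted p of at most 0.05 and less than a 2-fold difference (median -0.51). Vegfa, the growth factor that type 1 cells supply to capillaries, was at 1338, 1385 and 1278 against 685 and 805 CPM (-0.84 ± 0.18, adjusted p = 0.008), Clic5 at 1476, 1531 and 1432 against 840.3 and 942 CPM (-0.73 ± 0.16) and Cav1, which endothelium shares, at 1301, 1421 and 1346 against 725 and 895 CPM (-0.74 ± 0.19). Ager, the receptor RAGE, was at 1874, 2126 and 1767 against 1565 and 1746 CPM (-0.22 ± 0.17). In the transitional state between the types, Sprr1a, a barrier protein, was at 0.454, 0.303 and 0.384 against 2.36 and 3.50 CPM (log2 fold change 2.93 ± 0.50 SE, adjusted p = 0.0017), while Krt8, its keratin, was at 167, 177 and 164 against 228 and 248 CPM (0.49 ± 0.18) and not called. The other genes that rose among these 12 were Lgals3, Areg and Cdkn1a.

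Airway genes gave 1 call, where 4.34% of all genes tested were called higher. Of 13 club and goblet cell genes 1 rose. This was Retnla, given above as a gene of alternatively activated macrophages. None of 15 cilia genes was called. Scgb1a1, the secretoglobin of club cells, was at 14329, 17195 and 16481 against 10588 and 11480.3 CPM (-0.54 ± 0.24, adjusted p = 0.15). Foxj1, the factor of multiciliated cells, was at 89.3, 90.2 and 112 against 149 and 147 CPM (0.61 ± 0.20). Clca1, a goblet cell protein, was at 0.697, 0 and 3.37 against 183 and 8.69 CPM and was highest in 3138.

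Capillary and pan-endothelial genes had negative log2 fold changes almost throughout, while the 7 endothelial adhesion genes listed had positive ones. Of 27 capillary and pan-endothelial genes 25 had a negative log2 fold change, 15 of them with an adjusted p of at most 0.05, and 4 passed the fold limit as well (median -0.75). Their summed level was 10554 to 10812 CPM in the controls and 6062 to 6417 CPM after 65 Gy. Tek, the angiopoietin receptor TIE2, was at 428, 469 and 442 CPM in the controls and 187 and 185 CPM after 65 Gy (log2 fold change -1.26 ± 0.24 SE, adjusted p = 0.0033), and Tie1 at 292, 303 and 306 against 165 and 159 CPM (-0.89 ± 0.18). Ptprb, the endothelial phosphatase VE-PTP, was at 1408, 1308 and 1280.4 against 553 and 462 CPM (log2 fold change -1.39 ± 0.27 SE, adjusted p = 0.0041), and Sema3g, of arterial endothelium, at 299.8, 308 and 278 against 108 and 116 CPM (log2 fold change -1.40 ± 0.31 SE, adjusted p = 0.0082). Fibin was at 79.0, 70.8 and 74.1 against 26.1 and 32.2 CPM (-1.36 ± 0.37). In all 5 genes both irradiated libraries lay below every control. Without 3140 the adjusted p of Ptprb was 0.057 and that of Sema3g 0.061, Sema3g had 0.088 without 3138, and Fibin was lost with any library left out (0.0504 to 0.18). The 4 falls were 2 without 3138 or 3140 and 3 without a control. The capillary genes Car4 (153, 147 and 146 against 102 and 118 CPM, -0.44 ± 0.28) and Ednrb (158, 159 and 155 against 71.8 and 80.4 CPM, -1.05 ± 0.37) of gas exchange cells were not called. Lpl, the gene of this list that rose, is also the macrophage lipase given above. In the lymphatic set Flt4, the receptor VEGFR3, was at 89.6, 87.7 and 83.6 against 43.0 and 46.7 CPM (-0.95 ± 0.18) and Reln at 20.0, 16.2 and 18.8 against 10.6 and 9.34 CPM (-0.88 ± 0.17), both short of the fold limit.

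Genes of mesenchymal cell types were mixed. Contractile smooth muscle genes overlapped between the groups, as Myh11 (143, 161 and 226 against 149 and 167 CPM, -0.16 ± 0.22) and Cnn1 (28.0, 32.0 and 55.1 against 28.0 and 41.9 CPM, -0.13 ± 0.36) show. Rgs5, a pericyte gene, was at 13.4, 9.20 and 12.5 against 27.0 and 52.7 CPM (log2 fold change 1.77 ± 0.28 SE, adjusted p = 0.001), while the pericyte receptors Pdgfrb (187, 192 and 203 against 142 and 137 CPM, -0.48 ± 0.20) and Notch3 (158, 161 and 191 against 103 and 105 CPM, -0.71 ± 0.19) were not called. Of 12 genes of lipofibroblasts and alveolar fibroblasts Plin2 rose and 11 had a negative log2 fold change without being called (median -0.66). Npnt was at 956, 1059.8 and 945 against 541 and 654 CPM (-0.72 ± 0.24), Scn7a at 551, 583 and 576 against 328 and 402 CPM (-0.64 ± 0.14) and Tcf21, the factor of these cells, at 59.5, 59.5 and 64.9 against 39.3 and 46.2 CPM (-0.52 ± 0.26). Sfrp1, an inhibitor of WNT signalling, rose to 78.7 and 74.2 CPM from 10.3, 15.1 and 16.6 CPM (log2 fold change 2.45 ± 0.24 SE, adjusted p = 1.6e-05). Of 7 mesothelial genes 4 fell, Upk3b and Lrrn4 as given above, Wt1 (0.681, 2.07 and 1.204 against 0.264 and 0.119 CPM, -2.76 ± 0.64) and Muc16 (1.96, 10.6 and 10.2 against 2.29 and 1.18 CPM, -2.12 ± 0.57), and Calb2 had no control count and 0.0825 and 0.137 CPM after 65 Gy. That is at least 2.05-fold higher than the floor for Calb2. Without 3138 and without 3140 none of the 4 falls was called (adjusted p = 0.0519 and 0.11 for Wt1, 0.075 and 0.19 for Muc16), and Wt1 had a log2 fold change of -3.44 without 3138. Muc16 was also lost without 3136 (0.074) and 3137 (0.068), and 2 of the 4 falls were left without 3136.

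Lipid mediators, sterols and redox genes showed single changes. In the cyclooxygenase arm, Hpgds, a prostaglandin D synthase, was at 2.71, 2.01 and 2.20 CPM in the controls and 11.5 and 10.9 CPM after 65 Gy (log2 fold change 2.28 ± 0.22 SE, adjusted p = 1.6e-05), Tbxas1, thromboxane synthase, at 10.9, 10.6 and 9.06 against 35.3 and 36.5 CPM (log2 fold change 1.82 ± 0.25 SE, adjusted p = 0.00031), and the receptors Ptgir (8.63, 7.59 and 6.39 against 20.1 and 19.8 CPM, 1.40 ± 0.17) and Ptger4 (7.25, 6.83 and 6.49 against 17.02 and 15.4 CPM, 1.24 ± 0.20) rose. Ptgs2, the inducible cyclooxygenase, was just under the fold limit at 14.0, 10.2 and 11.1 against 20.7 and 25.6 CPM (0.98 ± 0.28, adjusted p = 0.033), and Ptgs1 was at 87.1, 91.5 and 86.3 against 163 and 159.7 CPM (0.87 ± 0.12). Alox12, the platelet lipoxygenase, fell (14.4, 11.1 and 11.1 against 4.62 and 6.40 CPM, -1.15 ± 0.25) but not without 3138 (-0.93). The fifth gene to rise was Pla2g2d, which is given with the comparison over time. Of 23 eicosanoid genes 5 rose and 1 fell (median 0.58). Of 19 genes of cholesterol and fatty acid synthesis Scd1 alone rose, and Fasn (664, 653 and 752 against 1165 and 1123 CPM, 0.73 ± 0.19), Me1 (79.5, 84.7 and 88.0 against 136 and 132 CPM, 0.67 ± 0.10) and Cyp51 (30.6, 29.4 and 32.6 against 59.7 and 56.7 CPM, 0.91 ± 0.23) passed the adjusted p only. Of 19 redox genes 4 rose. Hmox1, heme oxygenase, was at 29.2, 30.2 and 30.6 against 71.5 and 72.1 CPM (log2 fold change 1.26 ± 0.25 SE, adjusted p = 0.0049), Slc7a11, the cystine transporter, at 4.17, 3.62 and 4.36 against 16.4 and 11.5 CPM (log2 fold change 1.79 ± 0.31 SE, adjusted p = 0.0022), and the phagocyte oxidase subunits Cyba (57.5, 56.9 and 46.9 against 134 and 109 CPM, 1.17 ± 0.21) and Cybb (109, 79.7 and 79.6 against 224 and 218 CPM, 1.31 ± 0.38) rose, Cybb with a call that was lost when any 1 library was left out (adjusted p = 0.0502 to 0.14). None of 16 clock genes and none of 9 heat shock genes was called, with medians of -0.49 and 0.25. Over all genes tested 5.28% were called, so 1 call in 19 and none in lists of 16 or 9 are near that share.

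Genes of other tissues that a lung sample can hold were not called, apart from 1 nerve gene. None of 8 red blood cell, 4 thymocyte, 10 adipocyte, 14 muscle or 3 liver genes was called. With 5.28% of all genes tested called, no call in lists this short says little. The summed cardiac and skeletal muscle genes were 189.6 to 727 CPM in the controls and 355 to 394 CPM after 65 Gy, and the adipocyte genes 72.9 to 187 CPM in the controls and 120.0 to 128 CPM after 65 Gy, with 3137 highest in both. S100b rose among 7 nerve and Schwann cell genes (1.33, 0.731 and 1.97 against 3.88 and 4.22 CPM, log2 fold change 1.59 ± 0.36 SE, adjusted p = 0.0094), but not without 3138 (adjusted p = 0.0527) or 3140 (0.061).

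The 65 Gy lungs were also set against the 3 lungs of 75 Gy at 6 weeks, since the study asks whether the lower dose can take the place of the higher one. No gene of 22052 was called between the doses (0.0%), the smallest adjusted p was 0.066, and 1431 genes (6.49%) had an unadjusted p under 0.05. DESeq2 called 14 genes. Both doses were compared with the same controls, so their fold changes over control are not independent. Over the 956 genes that rose after 65 Gy, which were chosen on the 65 Gy values, the median log2 fold change was 1.85 at 65 Gy and 2.08 at 75 Gy, and over the 208 that fell it was -1.25 and -1.38. The gene-level intervals differed in width. Mmp12 was at 279, 239 and 258 CPM after 75 Gy (log2 difference, 75 Gy minus 65 Gy, 0.21, 95% interval -0.51 to 0.93), and Gpnmb at 399, 269 and 309 CPM (0.13, 95% interval -0.49 to 0.75). Spp1 was at 1789, 1903 and 2521 CPM (0.53, 95% interval -0.13 to 1.18). Gdf15 had the narrowest interval of the genes plotted, with 8.55, 9.68 and 10.7 CPM and a difference of -0.06, 95% interval -0.31 to 0.19, and Cdkn1a had 0.20, 95% interval -0.16 to 0.56. The intervals of Mmp12, Gpnmb, Gdf15 and Cdkn1a, each for 1 gene alone, leave out any difference as large as 2-fold. Those of Spp1, Retnla (-1.02 to 1.29) and Cxcl9 (-1.15 to 1.34) do not. Col1a1 was at 290.1, 250.6 and 201 CPM (-0.44, 95% interval -0.95 to 0.06), and Eln at 401, 368 and 299.9 CPM (95% interval -0.60 to 0.59). The intervals of Col1a1 and Eln also leave out a 2-fold difference.

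Among the listed genes, 5 were picked after their values were seen, as genes whose interval between the doses left out 0. Cpa3 was at 9.58, 14.3 and 12.8 CPM after 75 Gy against 3.17 and 4.51 CPM after 65 Gy (1.67, 95% interval 0.77 to 2.58), and Mcpt4 at 4.84, 5.63 and 5.70 CPM (1.38, 95% interval 0.41 to 2.35). An unadjusted p under 0.05 between the doses was found for 5 of 8 mast cell genes, 5 of 18 genes of resident and alternatively activated macrophages, 6 of 17 of adventitial fibroblasts and mesothelium and 6 of 27 of endothelium. These are the lists with the most such genes. The share over all genes tested was 6.49%, and the collagen and mitotic lists held 0 of 21 and 0 of 35. Il6 was at 7.56, 12.3 and 15.5 CPM after 75 Gy (1.59, 95% interval 0.36 to 2.82), and Upk3b at 13.3, 9.91 and 3.05 CPM (1.98, 95% interval 0.58 to 3.39). Ptprb was at 391, 297 and 287 CPM after 75 Gy (-0.64, 95% interval -1.19 to -0.10). The intervals of these 5 genes leave out 0, but each is for 1 gene alone, and the adjusted p over all genes was 0.74 for each of them.

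**Figure D5:**
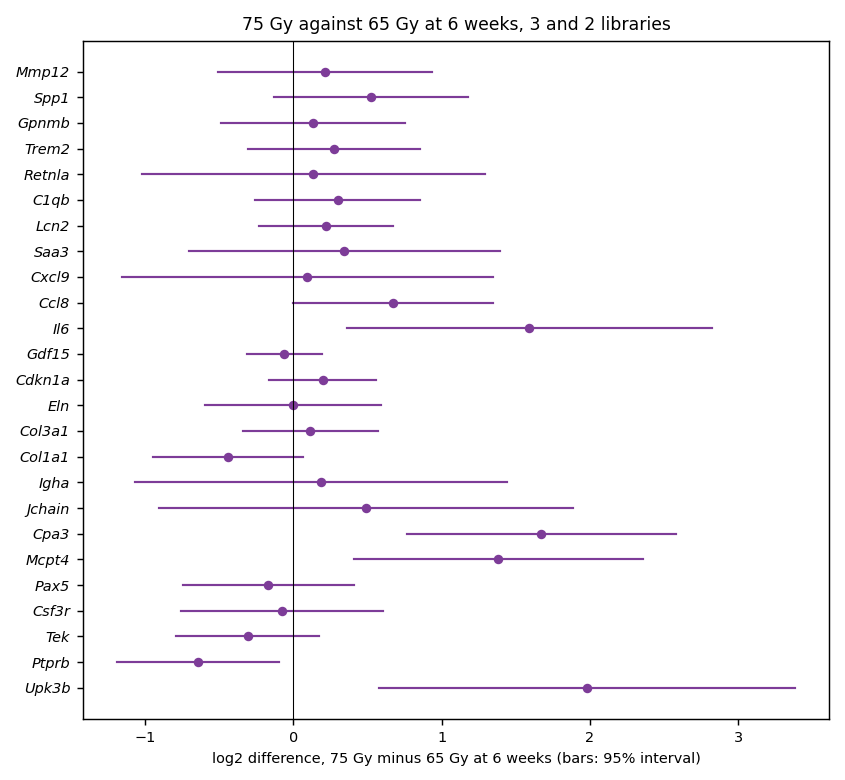
Log2 difference of 75 Gy minus 65 Gy at 6 weeks (horizontal axis) for 25 genes, with 95% intervals from the fit across all genes (3 and 2 libraries). The intervals of Il6, Cpa3, Mcpt4, Ptprb and Upk3b leave out 0 for the single gene, while no gene passed the test over all genes.

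The effect of 65 Gy at 6 weeks was compared with its effect at 2 weeks, the time the study calls the inflammation stage, as the difference of the 2 fold changes over the controls of each time. At 2 weeks both groups held 3 libraries. Of 22052 genes 3 were called (0.0136%), all with a positive difference, and 1908 (8.65%) had an unadjusted p under 0.05. Ear2, an eosinophil-associated ribonuclease that alveolar macrophages also express, was at 149, 61.5 and 85.2 CPM in controls and at 36.6, 47.3 and 36.7 CPM after 65 Gy at 2 weeks (log2 fold change -1.29 ± 0.25 SE). At 6 weeks it was at 82.8, 69.2 and 69.1 against 187 and 189.8 CPM (1.35 ± 0.27), so the direction turned, with a difference of 2.65 ± 0.37 SE, adjusted p = 0.039. Ear2 has near-identical relatives that can share its reads. Igf1, a growth factor of macrophages and fibroblasts, was at 46.3, 33.1 and 46.7 CPM and 78.2, 76.7 and 84.2 CPM at 2 weeks (0.92 ± 0.12) and at 16.8, 16.3 and 19.2 against 88.8 and 78.7 CPM at 6 weeks (2.26 ± 0.14), with a difference of 1.34 ± 0.18 SE, adjusted p = 0.039. Pla2g2d, a secreted phospholipase of dendritic cells, was at 1.04, 1.54 and 1.77 CPM and 0.872, 0.666 and 0.766 CPM at 2 weeks and at 1.44, 2.51 and 2.13 against 9.498 and 5.82 CPM at 6 weeks (1.92 ± 0.29), with a difference of 2.83 ± 0.41 SE, adjusted p = 0.042. For Ear2 and Pla2g2d the irradiated libraries thus lay below the controls at 2 weeks and above them at 6 weeks. For Igf1 the irradiated libraries overlapped between the times, and the controls were lower at 6 weeks than at 2 weeks. Leaving out 1 library of the 4 groups gave 0 to 7 called genes, and no gene of the 3 kept its call in each of these fits. Ear2 kept it without 3126, 3127 or 3128, Igf1 without 3127, 3128 or 3137, and Pla2g2d without 3126 or 3140. DESeq2 called 79 genes and kept all 3.

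Other genes named above had differences that did not pass over all genes. Mmp12 was at 6.92, 3.70 and 5.36 CPM in controls and 51.9, 47.1 and 40.3 CPM after 65 Gy at 2 weeks, and the difference between its effects was 2.37 ± 0.47 SE, adjusted p = 0.12. Ccl8 had 2.29 ± 0.46 SE, adjusted p = 0.12, Fgg 4.20 ± 0.73 SE, adjusted p = 0.092 and Eln 1.64 ± 0.37 SE, adjusted p = 0.22. Retnla had 3.0 ± 0.73 SE, adjusted p = 0.31, with controls of 40.5, 139 and 25.1 CPM at 2 weeks. For Gpnmb and Gdf15 the differences were negative, at -0.64 ± 0.40 SE, adjusted p = 0.65 and -0.69 ± 0.17 SE, adjusted p = 0.32. The mitotic list had a median of 1.64 at 2 weeks against 0.75 at 6 weeks, and the immunoglobulin constant regions 0.32 against 3.0. The B cell list had -0.22 and -0.81, and the capillary list -0.67 and -0.75.

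The 65 Gy libraries differed from each other at 143 of 14640 genes by at least 2-fold (0.977%, over genes with a mean log2 CPM of at least 1), against 59 to 129 genes among the control pairs and 110 to 215 among the 75 Gy pairs of 6 weeks. The biological coefficient of variation, the spread between libraries beyond counting error, was 0.166 for 65 Gy, 0.134 for controls and 0.171 for 75 Gy at 6 weeks. Of the 80 genes higher in 3138, 45 were immunoglobulin segments or constant regions (38 V segments, 2 J segments and 5 constant regions). Cyp1a1, a target of the aryl hydrocarbon receptor, was at 53.9 CPM in 3138 and 4.61 CPM in 3140, and the goblet cell genes Clca1 (183 and 8.69 CPM) and Muc5ac (24.7 and 3.09 CPM) were also high in 3138. Of the 63 genes higher in 3140, 14 were V segments and 42 were protein-coding.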

How the data were processed

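Total RNA of mouse lung was made into stranded, poly(A)-selected libraries and sequenced as paired reads. Per the study's methods the authors checked reads with FastQC, trimmed them with Trimmomatic, aligned them with HISAT2 to GRCm38.p6 and assembled them with StringTie. They deposited whole-number read counts per gene, not normalized. How these counts were taken from the assembly, and with which strand setting, is not given in the sources used here. Samples were grouped by their labels.

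All 17 libraries of 6 groups were fitted together with edgeR 4.0.16 in R 4.3.3 (TMM factors, quasi-likelihood test, 1 coefficient per group). Genes were kept by filterByExpr (minimum count 10, minimum total 15). A call needed a log2 fold change of at least 1 in size and an adjusted p (Benjamini-Hochberg, over all genes tested) no higher than 0.05. CPM values use the TMM-scaled library sizes, and every ± is 1 SE of the fit. The 12 largest rises and falls were named among called genes with no overlap between groups and a mean log2 CPM of at least 1, passing over predicted genes and V segments. From each list the first 3 members and the 4 with the smallest p were named, and other listed genes were named after their values were seen. The members and lists were chosen with earlier results of these data known. The tests were also run on simulated counts with 200 changed genes, and the outcome is not given here. Alternatives were other size factors, no filter, DESeq2 1.42.0, the exact test, fewer libraries in the fit and each library left out. A floor of 3 counts covers counting error only. Promoter sequences and gene coordinates are from RefSeq on GRCm38.p6. A few genes are not reported here.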

Additional observations from a re-analysis of the deposited data

Results flagged for a closer look

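A test of the difference between the 65 Gy effects at 6 and 2 weeks, as an interaction in edgeR's quasi-likelihood fit over all genes, singled out 3 genes. The difference (6 weeks minus 2 weeks, log2) was 2.65 for Ear2, 1.34 for Igf1 and 2.83 for Pla2g2d, with adjusted p-values of 0.039, 0.039 and 0.042. In Ear2 all 3 irradiated libraries of 2 weeks lay below their controls and both of 6 weeks lay above theirs, and the same held for Pla2g2d, while Igf1 was above the controls at both times. The irradiated levels of Igf1 overlapped between the times, and its controls were lower at 6 weeks than at 2 weeks. The groups held 2 or 3 libraries, too few for a test of single libraries that stand apart from their group.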

How the results depend on the processing

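The 1164 genes called between 65 Gy and control were 1103 to 1628 with other size factors, with no filter, with DESeq2, with the exact test or with fewer libraries in the fit, and 92.3% to 99.3% of the calls were shared with each of these. With the adjusted p alone there were 3234 genes, 1689 higher and 1545 lower. The exact test on the 5 libraries called 329 lower genes in place of 208. The share of higher genes among the calls was 82.1%, and 90.8% without 3138. Leaving out 1 library gave 599 to 952 calls (544 to 793 higher and 55 to 167 lower), with 47.9% of the calls shared without 3138 and 55.0% without 3140. A 65 Gy library left alone in its group is assumed in these fits to vary like the other groups. Of 190 called genes of the lists and of the largest changes, none changed sign under any of these settings, and 2 to 4 lost the call under an alternative that kept all 5 libraries, 21, 28 and 27 without 3135, 3136 and 3137, 64 without 3138 and 49 without 3140. Of 583 other listed genes 1 to 27 gained one. DESeq2 gave no adjusted p for 7 of these genes, H2-M2 among them, which are left out of its counts. No paired analysis was possible because the labels give every library a different number, so no number links a library of one group to one of another.

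Between 75 and 65 Gy no gene was called by edgeR, while 1 was called without the filter, 14 by DESeq2 and 0 to 4 with 1 library left out (4 without 3140, 2 without 3143 and 1 without 3141). For the effects at 6 and 2 weeks the 3 genes were 5 without the filter, 79 by DESeq2 and 0 to 7 with 1 library left out. With 1 library left out the difference was 2.23 to 2.90 for Ear2, 1.25 to 1.49 for Igf1 and 2.44 to 3.14 for Pla2g2d. The cause of these changes was not tested. Genes with few counts, such as Cxcl3, Saa1 and Orm2, have levels in controls that the depth does not resolve.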
